A study of Mus musculus with 14 samples.

Results

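RNA immunoprecipitation (RIP) rows annotated to non-coding or unnamed genes were examined in control and Lin28a+ muscle stem cells (MuSCs). Members were all rows of the m6A, Igf2bp3 and Lin28a RIP tables whose Entrez identifier maps to a mouse symbol of 1 of 4 classes. The Mir class holds symbols that start with Mir and a digit, and the Snhg class those that start with Snhg and a digit. The Gm class holds symbols made of Gm and a number alone, and the Rik class those that end in Rik. Members were 2942 of 59962 rows, in 903 of 10505 genes. There were 1199 Mir rows in 289 genes, 2 Snhg rows in 2 genes, 522 Gm rows in 232 genes and 1219 Rik rows in 380 genes.

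The study compared MuSCs from mouse skeletal muscle that are positive for Lin28a with control MuSCs, to learn which RNAs the Lin28a and Igf2bp3 proteins bind and which carry m6A. Lin28a+ cells were sorted from mice that carry Lin28a-CreERT2 and LSL-tdTomato, in which a recombinase driven by the Lin28a gene switches on a red reporter, and the labels give the control cells as control without naming their alleles or age. Both were grown on Matrigel in DMEM with fetal bovine serum. Each group had 2 libraries each of input RNA, m6A-RIP (labelled polyA RNA, the others total RNA) and Igf2bp3-RIP, and Lin28a-RIP had 2 libraries from Lin28a+ cells and no control. The methods state in general that experiments had biological replicates, but no source says whether these libraries came from separate animals or cultures, so the p-values measure only the spread between these libraries, which may be technical. Deposited counts summed to between 21350962 and 31830638 per library for m6A-RIP, between 9215355 and 34142094 for Igf2bp3-RIP, and 36610494 and 33908110 for Lin28a-RIP. In the input all 8 myogenic markers searched for were present, with summed library-size-scaled counts (CPM) of 9040 and 9450 in control and 11600 and 11800 in Lin28a+. The list did not move together: 3 passed the test higher and 3 lower, with Myog at 748 and 774 CPM in control against 2790 and 2840 CPM in Lin28a+, and Myf5 at 441 and 464 against 198 and 202 CPM. Fibro-adipogenic markers summed to 4.07 and 4.82 CPM in control against 13.7 and 12.8 CPM in Lin28a+, nearly all of it Ly6a, and 1 passed the test higher. Sums were at most 0.501 CPM for endothelial and 2.27 CPM for macrophage markers. The smooth muscle list summed to 5310 and 5400 CPM in control against 7480 and 7500 CPM in Lin28a+, of which Acta2 held nearly all, while Rgs5 went from 2.38 and 2.09 to 0.198 and 0.206 CPM. Dcn, Dpt, Cdh5, Kdr, Tek, Adgre1 and Cspg4 were not listed in the input. The share of any of these cells in a result below was not tested, and in bulk samples fewer cells of a type and less RNA per cell cannot be told apart.

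A microRNA gene is transcribed as part of a longer RNA, and many microRNA genes lie inside introns of protein-coding genes, from whose transcript the hairpin is cut out. Lin28a is an RNA-binding protein best known for binding the hairpin precursors of the let-7 family and also binds messenger RNAs, and Igf2bp3 binds messenger RNAs, often at m6A, a methylated adenosine. Snhg genes carry small nucleolar RNAs in their introns. Gm and Rik symbols are provisional names from gene prediction and from a cDNA collection, and say nothing about whether a gene is coding.

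The mature sequences below belong to microRNA genes whose rows changed most clearly or were highest, to some members that share a seed with another, and to miR-98, which has the let-7 seed. They are from RefSeq (GRCm38.p6), which gave a mature sequence for 267 of the 289 Mir genes. Capitals mark the seed, bases 2 to 8, which pairs with target RNAs. The rows named after these genes count longer fragments, and most of their peaks did not touch the hairpin.
mmu-miR-6346: uAGCAGGUgucugcaaugccaa
mmu-miR-3095-3p: uGGACACUggagagagagcuuuu
mmu-miR-7225-5p: aCGUAGACuguguagaagcc
mmu-miR-7225-3p: cUUCUAGAcagccucugcagca
mmu-miR-1192: aAACAAACaaacagaccaaauu
mmu-miR-1953: uGGGAAAGuucucaggcuucug
mmu-miR-5623-5p: uGGCAGCUggcaagucagaaugca
mmu-miR-7045-5p: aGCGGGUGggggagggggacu
mmu-miR-3064-5p: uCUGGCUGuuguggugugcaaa
mmu-miR-7090-5p: uCUCAGAGuugggacaccaugag
mmu-miR-98-5p: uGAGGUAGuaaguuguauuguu
mmu-miR-103-3p: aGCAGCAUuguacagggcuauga
mmu-miR-107-3p: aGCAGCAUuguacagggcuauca
mmu-miR-25-3p: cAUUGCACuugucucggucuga
mmu-miR-32-5p: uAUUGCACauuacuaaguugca

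By RefSeq gene type the label non-coding was not right for every member. Of the 903 genes, 291 were miRNA genes, 350 lncRNA genes, 54 transcribed pseudogenes and 205 (22.7%) protein-coding genes. Protein-coding genes made up 146 of 380 Rik genes (38.4%) and 59 of 232 Gm genes (25.4%). Mir100hg, the host gene of a microRNA cluster, was the only Mir member that RefSeq types as lncRNA. Members took a small and even share of each assay. They held between 5.18% and 5.44% of the m6A-RIP counts, between 4.53% and 5.12% of the Igf2bp3-RIP counts, and 3.8% of the Lin28a-RIP counts in both libraries. Both Snhg genes, Snhg3 and Snhg4, appeared in the m6A-RIP table alone. Of the 243 member genes with a Lin28a-RIP peak, 73.3% also had an Igf2bp3-RIP peak, and of the 350 with an Igf2bp3-RIP peak, 50.9% also had a Lin28a-RIP peak. Over all genes these shares were 78.4% and 60.5%.

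Most positioned peaks of member genes did not lie in the gene they were annotated to. The Igf2bp3-RIP and Lin28a-RIP tables give a position for each peak, which was compared with RefSeq gene spans of the same assembly, and the m6A-RIP table gives none. A share of 20.9% of Igf2bp3-RIP member peaks (Wilson 95% interval 18.4% to 23.5%, 202 of 968) overlapped their own gene by at least 1 base. Among peaks of all other genes it was 83.7% (83.2% to 84.3%, 15491 of 18497). In Lin28a-RIP the share was 19.4% (16.9% to 22.2%, 162 of 834) against 88.8% (88.3% to 89.2%). These intervals and the floors given further on cover counting error only: the reads carry no molecular identifiers, and peaks of 1 gene share a transcript.

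**Figure D1:**
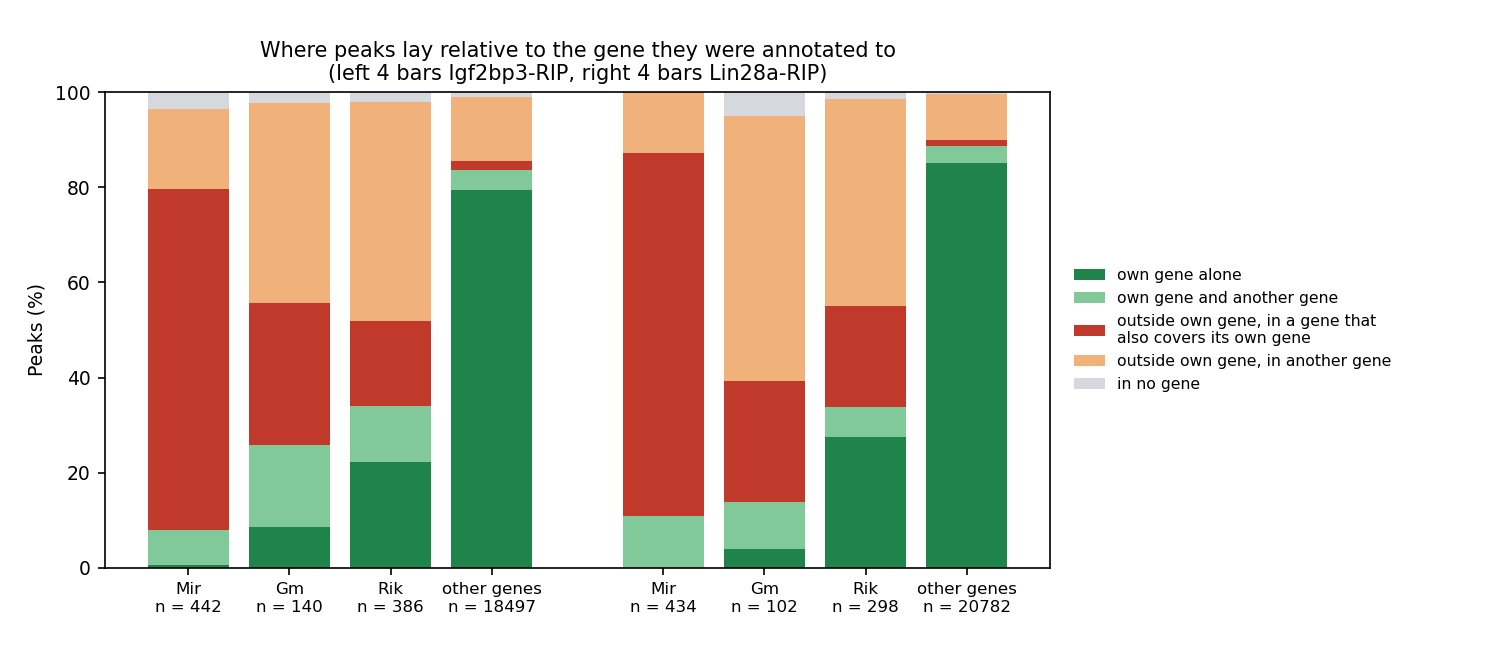
Share of peaks (%, y axis) by position relative to the gene they were annotated to, for the Mir, Gm and Rik classes and all other genes, in Igf2bp3-RIP (left 4 bars) and Lin28a-RIP (right 4 bars). Peaks of Mir genes lay mostly outside the microRNA gene but inside a gene that also covers it (71.7% and 76.5%), whereas peaks of other genes lay mostly in their own gene.

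Mir peaks lay mostly on host transcripts. Only 35 of 442 Igf2bp3-RIP peaks (7.92%) and 47 of 434 Lin28a-RIP peaks (10.8%) touched the annotated microRNA gene. At least 50% of the peak lay inside the annotated gene in 2 and 1 of them, and the 2 were peaks of Mir100hg, a long lncRNA gene and not a hairpin. A further 317 Igf2bp3-RIP peaks (71.7%) and 332 Lin28a-RIP peaks (76.5%) lay outside the hairpin but in another gene that also covers the hairpin. Counting any contact, 95.2% and 99.8% of Mir peaks lay in a protein-coding gene other than the annotated one. Peaks outside the hairpin were a median of 5428 bp (Igf2bp3-RIP) and 4693 bp (Lin28a-RIP) away from it, and up to 117898 and 93584 bp. The coding genes under them numbered 145 and 116, and 67.6% and 81.9% of these peaks lay in a coding gene that was also listed under its own name in the same table.

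Most miRNA genes behind these rows were intragenic. A protein-coding gene covered 161 of 206 miRNA genes with an m6A-RIP row (78.2%), 140 of 155 with an Igf2bp3-RIP peak (90.3%) and 125 of 132 with a Lin28a-RIP peak (94.7%). Over all 1228 RefSeq miRNA genes the share was 67.2%. Strand was known for both genes in 198 of the 242 covered miRNA genes, of which 178 lay on the strand of the coding gene and 20 on the other strand. The peak tables give no strand, and the kit is not stated to keep it, so a hairpin and a gene on the other strand cannot be told apart.

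In every Mir peak that lay outside its microRNA gene and in a coding gene with a known 5′ end, the 5′ end of the microRNA gene was the nearer of the 2. This held for 315 of 315 Igf2bp3-RIP peaks and 297 of 297 Lin28a-RIP peaks. The same was so for 51 of 53 Gm and 158 of 174 Rik peaks in Igf2bp3-RIP, and for 30 of 35 and 126 of 141 in Lin28a-RIP. Among peaks of other genes that lay outside their gene it was 89.6% and 90.9%. If peaks were named after the nearest 5′ end, these shares were fixed by the naming, so nothing about the peaks is read from them. Mir, Gm and Rik peaks outside their gene sat late in the coding gene under them. Counted from the 5′ end along the gene, introns included, the median place was 89.5% for Mir, 95% for Gm and 95.2% for Rik peaks in Igf2bp3-RIP. For peaks of other coding genes inside their own gene it was 75.3%. In Lin28a-RIP the medians were 77.1%, 91.7% and 91.0% against 67.0%. Peaks of other genes that lay outside their gene and in a coding gene sat as late or later, at medians of 95.7% in Igf2bp3-RIP and 94.2% in Lin28a-RIP, so the late place is not particular to these classes.

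**Figure D2:**
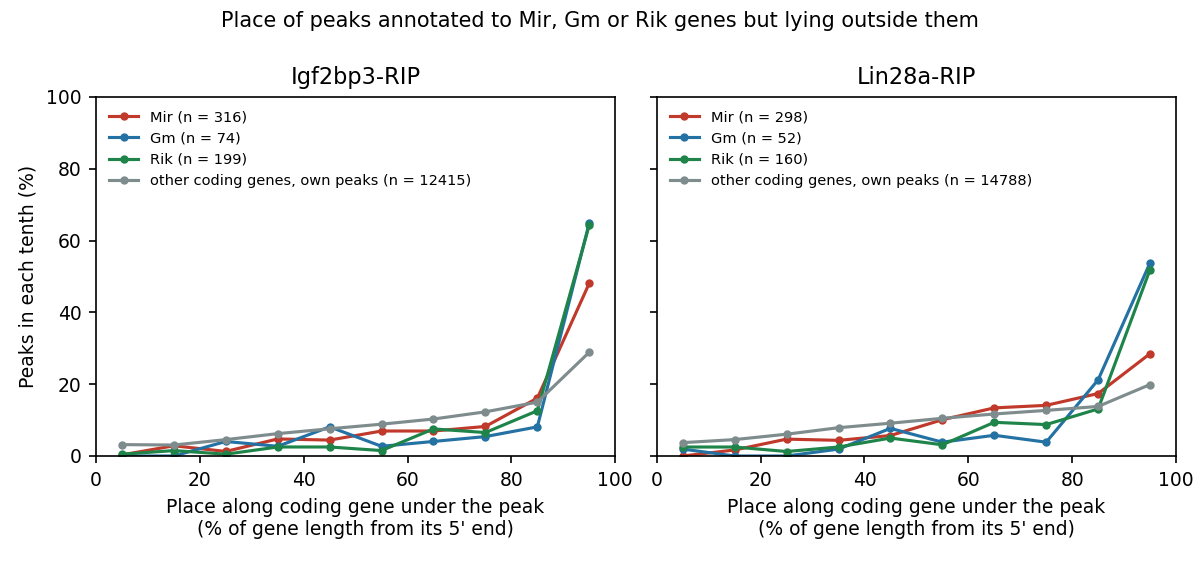
Share of peaks (%, y axis) in each 10% stretch of the coding gene under them (x axis, % of gene length from its 5′ end), for Mir, Gm and Rik peaks outside their annotated gene and for peaks of other coding genes in their own gene. The last stretch held the most peaks in each class, 48.1% of the Mir peaks in Igf2bp3-RIP.

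Gm and Rik peaks often lay in a neighbouring gene. The peak was outside the annotated gene and in a gene that does not cover it for 42.1% of 140 Gm peaks (34.3% to 50.4%) and 46.1% of 386 Rik peaks (41.2% to 51.1%) in Igf2bp3-RIP, against 17.0% of Mir peaks (13.8% to 20.7%), and for 55.9% of 102 Gm and 43.6% of 298 Rik peaks in Lin28a-RIP. Their own gene held 25.7% of Gm and 33.9% of Rik peaks in Igf2bp3-RIP, and 13.7% and 33.9% in Lin28a-RIP. The median distance of outside peaks was longer than for Mir genes, 15271 bp (Gm) and 16359 bp (Rik) in Igf2bp3-RIP and 17760 and 16078 bp in Lin28a-RIP. In Lin28a-RIP, 62 of the 101 Rik peaks inside their own gene belonged to 4932438A13Rik, a large protein-coding gene, so this share rests largely on that gene.

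The members with the highest summed peak counts showed the same positions. In Igf2bp3-RIP, A230028O05Rik led the Rik class with 1310 and 1650 CPM in control against 1300 and 2960 CPM in Lin28a+ over 4 peaks, and all 4 lay in Lpp, a cytoskeletal adaptor gene, at least 67153 bp away. The 12 peaks of 4933412O06Rik summed to 1070 and 1370 CPM in control against 1210 and 1440 CPM in Lin28a+ and lay in Gli3, a Hedgehog pathway transcription factor, 51924 to 140473 bp away. The groups of both genes overlapped. In Lin28a-RIP the 2 peaks of 6430562O15Rik held 1260 CPM in both libraries and lay in Map1b, which encodes a microtubule-associated protein.

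Most of the other leading genes of both classes also had their peaks in another gene. 9230105E05Rik had 1 Igf2bp3-RIP peak, 25077 bp away in Hmga2, a chromatin protein gene, with 605 and 1360 CPM in control against 485 and 2280 CPM in Lin28a+. Its libraries differed more within a group than between groups. The 2 peaks of 6430562O15Rik in Map1b held 1280 and 1150 CPM in control against 1230 and 1700 CPM in Lin28a+, and the 2 of 1600020E01Rik lay in Pcbp1, which encodes an RNA-binding protein, at 685 and 704 CPM in control against 793 and 757 CPM in Lin28a+. Among Gm genes, Gm20324, Gm12505, Gm20604 and Gm29443 had 2, 2, 10 and 6 Igf2bp3-RIP peaks in Tcf20, Rad23b, Btbd7 and Arhgap35, none in their own gene. None of the peaks of these genes passed the test in edgeR. In Lin28a-RIP, A230028O05Rik had 1070 and 1080 CPM over 3 peaks in Lpp, 9630028B13Rik 985 and 963 CPM over 11 peaks in Eprs, a tRNA synthetase gene, and 9430091E24Rik 695 and 678 CPM over 3 peaks in Glg1. The 62 peaks of 4932438A13Rik held 822 and 848 CPM. Gm20604 had 291 and 297 CPM over 10 peaks, and Gm6607 244 and 256 CPM over 3 peaks in Anln. The single peak of Gm5105, at 192 and 193 CPM, lay only partly in its own gene. It spanned chr3:138067019-138070267, while the span of Gm5105 reaches only to 138067388, and it also overlapped the coding gene 1110002E22Rik.

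Gm11149 led the Gm class in both peak tables. It overlaps Ncam1, a cell adhesion molecule of muscle and nerve. Its Igf2bp3-RIP peaks summed to 1070 and 1330 CPM in control against 812 and 641 CPM in Lin28a+, lower in both Lin28a+ libraries, and none of its 5 peaks passed the test in edgeR. Its 7 Lin28a-RIP peaks summed to 1160 and 1140 CPM. Its 5 m6A-RIP rows summed to 408 and 433 CPM in control against 180 and 190 CPM in Lin28a+, and all 5 fell. Input RNA of Ncam1 fell too, by 1.06 on the log2 scale (edgeR adjusted p = 7.3e-06).

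The Mir peaks with the most reads lay on the hairpin, elsewhere in the gene that holds it, or in a neighbouring gene. In Lin28a-RIP, the top peak was annotated to Mir7045, with 787 and 759 CPM, and lay 3190 bp from the hairpin in Chd4, a chromatin remodeller. The next was annotated to Mir3064, with 758 and 737 CPM, and lay 259 bp from the hairpin in Ddx5, an RNA helicase gene. After it came a peak of Mir7090, with 469 and 477 CPM, that touched the hairpin within Ctnnb1, which encodes beta-catenin. In Igf2bp3-RIP the top peak was annotated to Mir568, covered its hairpin and was 16511 bp wide, with 1470 and 1820 CPM in control against 1140 and 1140 CPM in Lin28a+. A second Mir568 peak, 14780 bp from the hairpin in Zbtb20, held 844 and 989 CPM in control against 661 and 656 CPM in Lin28a+. After these came a peak annotated to Mir3095, which held 604 and 946 CPM in control against 526 and 481 CPM in Lin28a+. It lay 64023 bp from the hairpin in Musk, the receptor kinase of the neuromuscular junction. All 3 were lower in both Lin28a+ libraries and none passed the test (edgeR adjusted p = 1).

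Peaks that touch a hairpin were few and were found for 33 miRNA genes in Igf2bp3-RIP and for 47 miRNA genes in Lin28a-RIP, with 21 genes in both. Every such peak reached beyond the hairpin, so it cannot be told apart from signal on the surrounding transcript. The letters GGAG, a motif known from Lin28 binding of let-7 precursors, were searched on the hairpin's own strand. They occurred in 19 of 41 hairpins under a Lin28a-RIP peak (46.3%), in 49 of 110 hairpins of all Mir genes in that table (44.5%) and in 447 of all 1005 RefSeq hairpins (44.5%).

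miR-98 carries the let-7 seed, and its gene lies on the same strand inside Huwe1, a ubiquitin ligase gene. No peak of Mir98 touched the hairpin. Its 3 Lin28a-RIP peaks lay 656, 2104 and 3366 bp away in Huwe1 and held 157 and 158, 120 and 123, and 150 and 149 CPM. Each was met by an Igf2bp3-RIP peak of Mir98, and these held between 67.7 and 143 CPM in control against between 52.0 and 125 CPM in Lin28a+. None passed the test (edgeR adjusted p = 1 for each). The m6A-RIP row of Mir98 held 16.6 and 24.5 CPM in control against 9.98 and 11.4 CPM in Lin28a+ and fell by 0.77 on the log2 scale (SE 0.17, edgeR adjusted p = 0.00104). Input RNA of Huwe1 changed by -0.74.

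The shared seed of miR-103 and miR-107 came with 3 related coding genes, Pank3, Pank2 and Pank1, which encode pantothenate kinases and hold Mir103-1, Mir103-2 and Mir107. None of their 10 Igf2bp3-RIP peaks and 2 Lin28a-RIP peaks touched a hairpin. The m6A-RIP row of Mir107 held 5.91 and 5.71 CPM in control against 3.79 and 3.14 CPM in Lin28a+ and fell by 0.60 (SE 0.21, edgeR adjusted p = 0.0239). The row of Mir103-1 held 4.02 and 5.06 CPM in control against 2.95 and 2.79 CPM in Lin28a+, and did not pass the test (edgeR adjusted p = 0.0809). The row of Mir103-2 held 29.7 and 32.8 CPM in control against 29.9 and 31.2 CPM in Lin28a+, and its groups overlapped. Input RNA of Pank1, Pank3 and Pank2 changed by -1.02, -0.50 and 0.03 on the log2 scale. The seed of miR-25 and miR-32 likewise came from rows in Mcm7 and Tmem245, with the Mir25 peak 211 bp from its hairpin in Lin28a-RIP and the Mir32 peaks 3857 to 8834 bp away in Igf2bp3-RIP.

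Between control and Lin28a+ MuSCs the m6A-RIP rows of members changed about as often as other rows. Of all 18881 rows, 30.0% were higher and 31.8% lower in Lin28a+ at an edgeR adjusted p under 0.05. Among members, 312 of 1140 rows (27.4%) were higher and 369 (32.4%) lower, so their share lay near the background and is no result about these classes. Mir rows were higher in 93 and lower in 116 of 323, Gm rows in 80 and 87 of 280, and Rik rows in 139 and 165 of 535. Median log2 fold changes were -0.03, 0.11 and -0.02, against 0.00 over all rows. With total counts alone in place of TMM factors the median over all rows shifted by -0.15 and the split over all rows became 3842 higher and 7638 lower. By RefSeq type, lncRNA rows of members were higher in 114 and lower in 159 of 460, and protein-coding rows in 81 and 72 of 280.

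**Figure D3:**
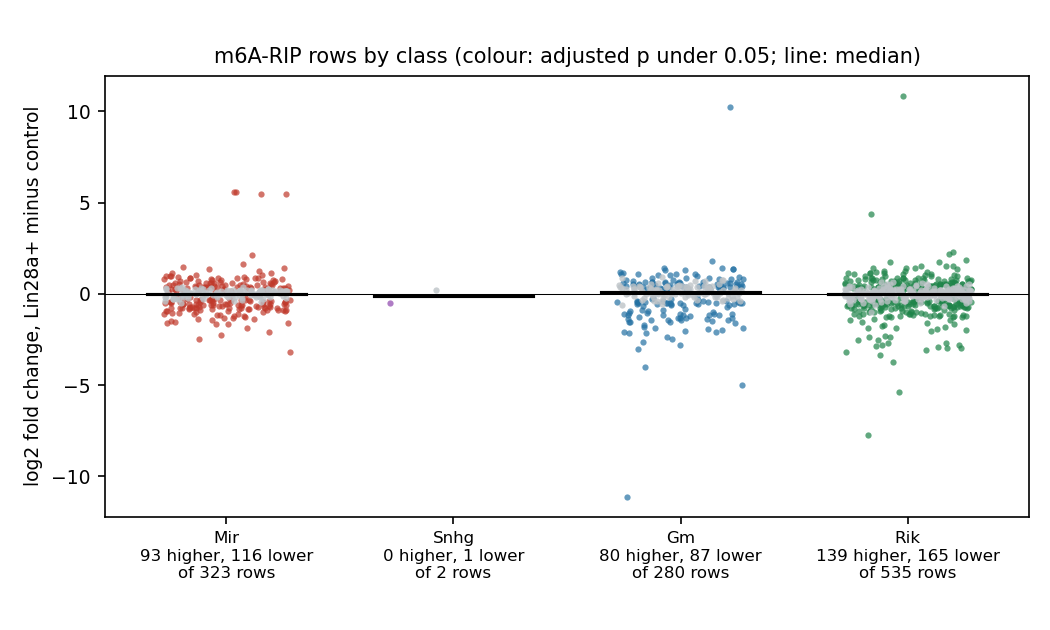
Change of each m6A-RIP row of member genes (y axis, log2 fold change, Lin28a+ minus control) by class. Coloured points passed an adjusted p of 0.05, grey points did not, and the black line is the median. Medians lay between -0.14 and 0.11, and the rows beyond 10 in size were those at 0 in 1 group.

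Of the rises among Mir rows, that of Mir6346 had the smallest p. The gene lies in Gli2, a transcription factor of the Hedgehog pathway. Its first m6A-RIP row held 1.07 and 1.22 CPM in control against 44.3 and 46.1 CPM in Lin28a+, a rise of 5.47 on the log2 scale (SE 0.13, edgeR adjusted p = 3.77e-13). Its second row held 0.565 and 0.843 CPM in control against 30.1 and 28.4 CPM in Lin28a+. Its last row held 0.346 and 0.0937 CPM in control against 10.7 and 9.11 CPM in Lin28a+. All 3 rows were near 0 in both control libraries and far above them in both Lin28a+ libraries.

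In the edgeR fit by group alone, over all 4 libraries, Mir6346 also accounted for every member peak that passed the test in Igf2bp3-RIP. Over all 19465 peaks, 0.0616% were higher and 0.0616% lower, which is 12 peaks in each direction. Among members 4 of 968 peaks were higher and none lower, and all 4 were Mir6346 peaks. At an unadjusted p under 0.05, 39 member peaks were higher and 34 lower, and DESeq2 called 20 higher and 9 lower. Over all peaks these counts were 395 and 622 unadjusted, and 111 and 152 by DESeq2. The calls depended on the setting. With at least 10 counts in every library no peak was called, among members or over all 19432 peaks tested. Leaving out any 1 library gave more calls, among members and over all peaks. So did a replicate block, the largest shift, as given in the closing section. The peak at chr1:118835993-118836322 held 1.19 and 0.616 CPM in control against 18.9 and 19.6 CPM in Lin28a+, a rise of 4.51 (SE 0.42, edgeR adjusted p = 0.0424). The peak at chr1:118855571-118855794 held 0.217 and 0.362 CPM in control against 7.53 and 8.79 CPM in Lin28a+, and rose by 4.64 (SE 0.43). The peaks at chr1:118842147-118842347 and chr1:118868067-118868283 rose by 4.84 and 5.08. The other 2 peaks of Mir6346 went from 0 and 0.29 CPM in control to between 7.03 and 10.6 CPM in Lin28a+ and just missed the threshold (edgeR adjusted p = 0.0519 and 0.0665). In each of the 6 peaks both Lin28a+ libraries lay above both control libraries.

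These 6 peaks did not lie near the hairpin. Mir6346 is at chr1:118954220-118954300 on the plus strand (GRCm38), at 45.4% of the length of Gli2 (chr1:118834061-119054405, minus strand). The peaks were 85937 to 117898 bp from the hairpin and at 84.5% to 99% of the length of Gli2 from its 5′ end. Input RNA of Gli2 was 0.285 and 0.5 CPM in control against 15.8 and 15.2 CPM in Lin28a+. It rose by 5.08 (SE 0.15, edgeR adjusted p = 1.11e-05), of the size seen in the rows named Mir6346. The lower control input value lies under 3 counts, so the size of this rise is uncertain. The rows named Gli2 itself did the opposite. All 5 m6A-RIP rows of Gli2 fell, by between 1.06 and 2.14 on the log2 scale, from between 3.64 and 5.34 CPM in control to between 0.834 and 1.94 CPM in Lin28a+. The Igf2bp3-RIP and Lin28a-RIP tables held no peak named Gli2.

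**Figure D4:**
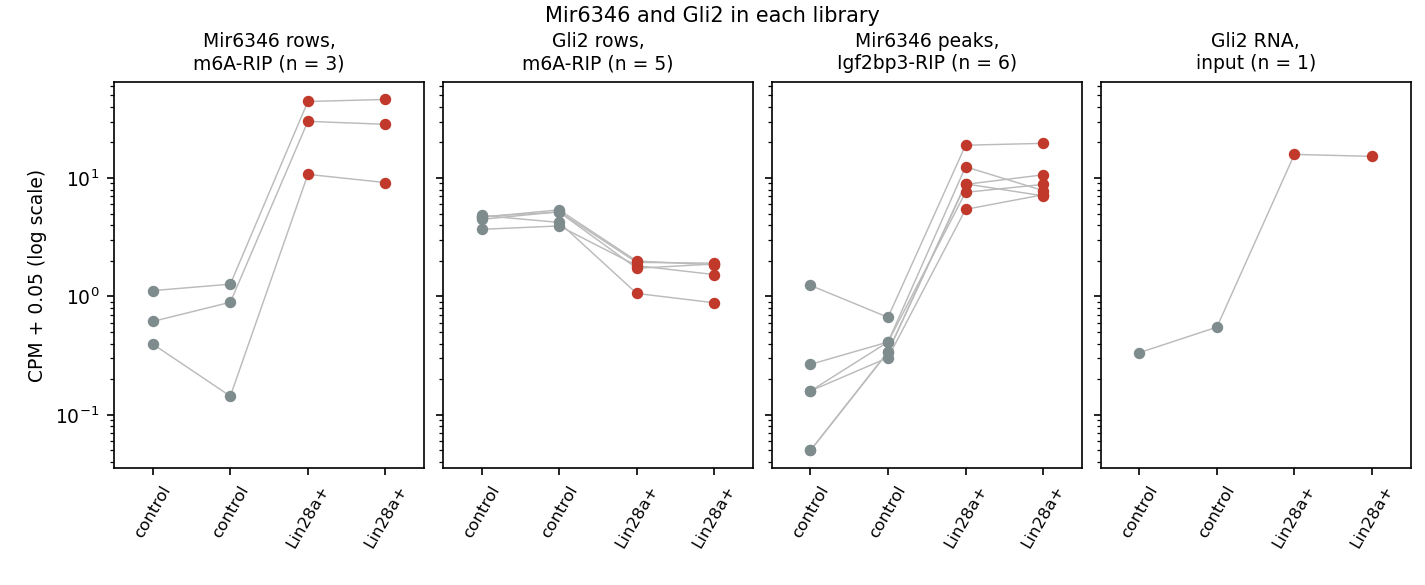
CPM plus 0.05 (y axis, log scale) in each of the 2 control and 2 Lin28a+ libraries, for the 3 m6A-RIP rows named Mir6346, the 5 m6A-RIP rows named Gli2, the 6 Igf2bp3-RIP peaks named Mir6346 and the input RNA of Gli2. Points joined by a line are 1 row, peak or gene, and every Mir6346 row and peak and the Gli2 RNA were higher in both Lin28a+ libraries while the Gli2 rows were lower.

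Over all microRNA genes held by a coding gene, the change of the m6A-RIP row lay close to the change in input RNA of that coding gene. Across 240 rows Pearson's r was 0.95 and Spearman's rho 0.93, and without Mir6346 they were 0.92 and 0.93 over 237 rows. Where both changes passed the test, 136 of 137 rows went in the direction of the coding gene. For the 182 rows whose microRNA gene is on the strand of the coding gene r was 0.91, and for the 18 on the other strand it was 0.99, or 0.94 over the 15 without Mir6346. For rows of all other genes against their own input RNA r was 0.80 over 15704 rows, and 7418 of 7795 rows called in both went the same way. These are descriptions across rows, which share genes and the same 4 m6A-RIP and 4 input libraries. No Mir or Snhg member was listed in the input table, so their own RNA could not be compared.

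**Figure D5:**
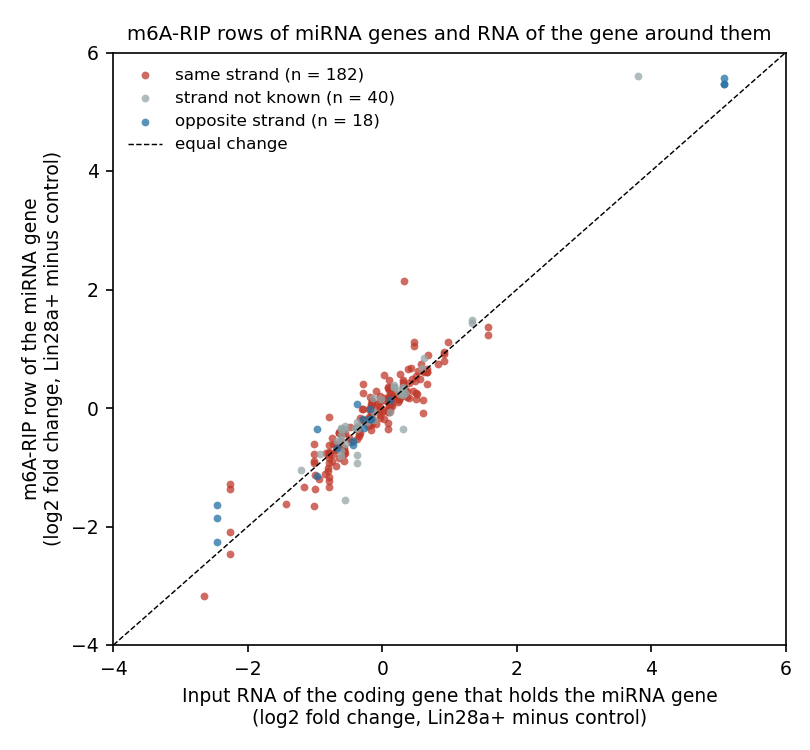
Change of m6A-RIP rows of miRNA genes (y axis, log2 fold change, Lin28a+ minus control) against the change in input RNA of the coding gene that holds the miRNA gene (x axis, same scale), coloured by relative strand, with equal change as a dashed line. The points lie along the line (r = 0.95 over 240 rows), with the 3 Mir6346 rows at the upper right and a row of Mir5623 above it.

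The clearest falls among Mir rows followed the coding gene as well. The Mir3095 row held 110 and 113 CPM in control against 17.4 and 18.7 CPM in Lin28a+ and fell by 2.47 (SE 0.062, edgeR adjusted p = 5.18e-13). Its other 3 rows fell by between 1.29 and 2.10. Lpar1, the lysophosphatidic acid receptor gene that holds it, fell by 2.27 in input RNA, and Musk, under its Igf2bp3-RIP peaks, by 1.14. The m6A-RIP rows have no position, so which of these transcripts they measure cannot be told apart. The Mir7225 row held 140 and 136 CPM in control against 39.2 and 41.2 CPM in Lin28a+ and fell by 1.62 (SE 0.057), and Pde4dip, which encodes a centrosome and Golgi protein and holds it, fell by 1.43. The Mir1192 row went from 81.1 and 77.6 to 28 and 28.6 CPM and fell by 1.33 (SE 0.063), and Klf9, a transcription factor gene, fell by 1.17. In each case the libraries of the groups were far apart.

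Of the other 2 rises named by the rule, that of Mir5623 exceeded the change of its holding gene. The Mir5623 row held 7.32 and 6.23 CPM in control against 27.1 and 26.8 CPM in Lin28a+, a rise of 2.14 (SE 0.13, edgeR adjusted p = 4.31e-09), whereas input RNA of Atrnl1, which holds it on the same strand, rose by only 0.32. Its second row did not pass the test. Mir1953 lies in no coding gene, 1779 bp from Fam110a, whose input RNA changed by 0.82. One of its 2 rows rose by 0.91, from 137 and 138 to 233 and 230 CPM, and the other fell by 1.5. It was the only one of 39 Mir genes with at least 2 called rows whose rows went both ways. A further 2 Mir rows were chosen after their values were seen. Mir6950 rose by 5.60, from 2 reads in each control library to 90 and 100 in Lin28a+, and Loxl2, which holds it and encodes a collagen cross-linking enzyme, rose by 3.81 in input RNA. Mir5130 fell by 3.17, and Kctd12, which holds it, fell by 2.65.

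The m6A-RIP rows with the most reads in the Mir class changed little. The row of Mir6356, which lies in no gene, held 2770 and 2760 CPM in control against 3110 and 3060 CPM in Lin28a+ and rose by 0.31 (SE 0.031). The row of Mir6390, in a non-coding gene, held 400 and 414 CPM in control against 506 and 492 CPM in Lin28a+ and rose by 0.45 (SE 0.043). Snhg3 held 16.1 and 15.4 CPM in control against 7.58 and 12.0 CPM in Lin28a+ and fell by 0.52 (SE 0.17, edgeR adjusted p = 0.0193). Without the Lin28a+ library at 7.58 CPM its change was -0.23 and no longer passed (edgeR adjusted p = 0.188). Snhg4 held 9.93 and 8.15 CPM in control against 11.5 and 7.89 CPM in Lin28a+, and its groups overlapped.

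Among Gm genes, m6A-RIP reads were led by Gm8579, a transcribed pseudogene, with 9820 and 10100 CPM in control against 12600 and 11500 CPM in Lin28a+ over 2 rows, both of which rose. A pseudogene can share reads with its parent gene, so this level is uncertain. Gm15179, a lncRNA gene that overlaps the intermediate filament gene Des, held 1780 and 1750 CPM in control against 1140 and 1120 CPM in Lin28a+, and both of its rows fell. Input RNA of Des fell by 0.53. Gm20268 held 1560 and 1410 CPM in control against 1470 and 1280 CPM in Lin28a+, and its groups overlapped. Gm15772, a transcribed pseudogene, held 738 and 762 CPM in control against 809 and 818 CPM in Lin28a+ and rose. In the Rik class the leading lncRNA genes 9330117O12Rik (1650 and 1710 CPM in control against 1810 and 1850 CPM in Lin28a+) and 1600020E01Rik (1310 and 1290 CPM in control against 1440 and 1450 CPM in Lin28a+) rose in every row.

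The clearest falls in the Gm class were in lncRNA genes. Gm6093 held 125 and 126 CPM in control against 17.3 and 19.1 CPM in Lin28a+ and fell by 2.63 (SE 0.064, edgeR adjusted p = 3.89e-13), with all 3 of its rows lower. Its 3 Igf2bp3-RIP peaks changed by between -2.12 and -1.97 without passing the test. Gm29811 fell by 2.08 (SE 0.070), from 78.6 and 82.8 to 16.7 and 17.6 CPM, and its other 3 rows changed by -0.69, -0.60 and -0.06, the last without passing the test. It lies 3149 bp from Npnt, which encodes an extracellular matrix protein and whose input RNA changed by -2.17, and 514 bp from Tbck, at -0.44. Gm16364 overlaps Fyn, a Src family kinase gene. Its row fell by 1.54 (SE 0.055), from 148 and 152 to 46.1 and 46.9 CPM, against 1.5 for input RNA of Fyn, and another of its rows rose by 0.75.

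The clearest rises in the Gm class included a row with no reads in control. Gm26760, a lncRNA gene 2392 bp from Cntn1, had 0 reads in both control libraries and 143 and 145 reads in Lin28a+. At a floor of 3 counts per library it was at least 45.5-fold higher in Lin28a+. Gm550, a protein-coding gene 2646 bp from Cdca5, a cohesin regulator gene, held 16.1 and 12.6 CPM in control against 33.8 and 37.0 CPM in Lin28a+ and rose by 1.44 (SE 0.11). Input RNA of Cdca5 rose by 1.29. Gm11694, a transcribed pseudogene that overlaps Nt5c, rose by 0.65 (SE 0.055), from 84.3 and 79.9 to 117 and 114 CPM, and its pseudogene status leaves the level uncertain. The reverse of Gm26760 was Gm10451, chosen after its values were seen, with 10.5 and 11.1 CPM in control against 0 reads in both Lin28a+ libraries. It was at least 97.2-fold lower in Lin28a+. Apart from these and G530011O06Rik, no member row of m6A-RIP was at 0 in a whole group, and 1 of 17741 rows of other genes was.

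Rik rows showed the same mix. E230016M11Rik, a lncRNA gene that overlaps Gadd45a, a DNA damage response gene, held 614 and 593 CPM in control against 239 and 237 CPM in Lin28a+. It fell by 1.19 (SE 0.045, edgeR adjusted p = 3.20e-11), and input RNA of Gadd45a fell by 1.27. 9530052E02Rik overlaps Irs2, an adaptor of insulin signalling. Its row rose by 1.27 (SE 0.070), from 28.7 and 32.4 to 66.5 and 65.3 CPM, all 7 of its rows rose, and input RNA of Irs2 rose by 1.09.

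2810414N06Rik fell by 3.35 (SE 0.16), from 22.2 and 22.7 to 2.27 and 1.73 CPM, 326 bp from Edem3, whose input RNA changed by -1.23. D630039A03Rik, a protein-coding gene, fell by 1.23 (SE 0.051), from 315 and 313 to 124 and 116 CPM. E330014E10Rik, also protein-coding, rose by 0.85 (SE 0.041), from 421 and 414 to 673 and 677 CPM. The most extreme row of the class was G530011O06Rik, a lncRNA gene that overlaps Mid1, a ubiquitin ligase gene. It had 0 reads in both control libraries and 192 and 255 in Lin28a+, at least 69.3-fold higher. Its second row changed by 0.11. Input RNA of Mid1 changed by -0.23 without passing the test (edgeR adjusted p = 0.277), and of the 3 m6A-RIP rows named Mid1 1 rose by 5.17 and the others fell by 0.46 and 0.78.

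For Gm and Rik genes the change of the row was also compared with that of the overlapping coding gene. Across 111 Gm rows and 150 Rik rows with an overlapping coding gene in the input, Spearman's rho was 0.67 and 0.71 and Pearson's r 0.61 and 0.50. Against the gene's own input RNA r was 0.44 over 16 Gm rows and 0.58 over 163 Rik rows. In Igf2bp3-RIP, 48 peaks of Gm or Rik genes lay outside a gene that was itself in the input and inside a coding gene that was too. Their change had an r of 0.23 and a rho of 0.43 with input RNA of the gene under the peak, and an r of -0.13 and a rho of -0.11 with that of the annotated gene. For Mir peaks outside their gene, r with the coding gene under the peak was 0.78 and rho 0.25 over 378 peaks, and 0.38 and 0.21 over the 372 peaks that were not Mir6346. These correlations are descriptions across peaks of the same 8 libraries.

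Igf2bp3-RIP peaks of Gm and Rik genes gave no call in edgeR's quasi-likelihood test fitted by group alone. At an unadjusted p under 0.05 there were 17 of 140 Gm peaks (12.1%) and 31 of 386 Rik peaks (8.03%), against 5.22% of all peaks, and DESeq2 called 5 and 10, against 263 of all 19465 peaks. Mir peaks at that level were 25 of 442 (5.66%). Median changes were 0.01 for Mir, 0.05 for Gm and 0.07 for Rik, against -0.01 over all peaks. In the fit by group alone the common coefficient of variation between replicates was 27.9% in this assay and 7.72% in m6A-RIP. A change of the same size was harder to detect in that fit of Igf2bp3-RIP. The fit with a replicate block is given in the closing section.

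In the input, 149 of the 903 member genes were listed, 118 Rik and 31 Gm, and 110 passed the filter on low counts. Over all genes tested, 28.1% were higher and 28.7% lower in Lin28a+. Among these members 20 (18.2%) were higher and 28 (25.5%) lower by edgeR, and DESeq2 called 7 and 10, with 1479 and 1560 over all genes. Median changes were 0.03 for 14 Gm and -0.01 for 96 Rik genes.

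Relative to input, few members changed in m6A-RIP. The test asks whether the change in m6A-RIP counts, summed per gene, differed from the change in input RNA. It sets listed rows of libraries labelled polyA RNA against estimated counts per gene in total RNA. A difference need therefore not be one in m6A, and its source was not tested. Over all 7943 genes tested, 3.05% were higher and 4.09% lower, and among 134 members 3 (2.24%) were higher and 5 (3.73%) lower. Without the second control input library, or without 1 Lin28a+ input library, they were 2 and 2. 1700030C10Rik, a lncRNA gene, was higher by 3.49 (SE 0.51, edgeR adjusted p = 0.00179). Its m6A-RIP reads were 19.8 and 20.3 CPM in control against 14.2 and 14.6 CPM in Lin28a+, while its input RNA went from 3.45 and 2.65 to 0.198 and 0.206 CPM. That Lin28a+ input level lies under 3 counts per library, so the size of this value is uncertain, and its 5 m6A-RIP rows went both ways, between -5.36 and 1.04. C330007P06Rik and 2310033P09Rik, both protein-coding, were higher by 1.04 (SE 0.17) and 0.56 (SE 0.099). Not every alternative fit kept the call of 2310033P09Rik. That gene held 342 and 344 CPM in control against 422 and 418 CPM in Lin28a+ in m6A-RIP, and 27.2 and 32.6 against 25.3 and 28.8 CPM in the input.

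Of those lower relative to input, D230025D16Rik changed by -0.89 (SE 0.14, edgeR adjusted p = 0.00323). Its m6A-RIP reads went from 19.3 and 20.8 to 13.6 and 13.2 CPM and its input RNA from 11.6 and 12.7 to 15.9 and 16.5 CPM. 3830403N18Rik changed by -3.58 (SE 0.66), with m6A-RIP reads of 3.96 and 2.06 CPM in control against 3.96 and 3.21 CPM in Lin28a+ and input RNA that rose from 0.183 and 0.964 to 9.29 and 8.47 CPM. The lower control input value lies under 3 counts, so the size of this value is uncertain. 9130401M01Rik changed by -0.83 (SE 0.16), and its 4 m6A-RIP rows went both ways, between -1.15 and 0.88. The calls of 3830403N18Rik and 9130401M01Rik were not kept in every alternative fit. For all but 2310033P09Rik among these 6 genes, input RNA passed the test in the direction opposite to the change relative to input, a quantity that itself holds the input change. All 6 are protein-coding apart from 1700030C10Rik.

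Overlap in position between the peak tables was near that of other genes for Lin28a-RIP and lower for Igf2bp3-RIP. In Lin28a-RIP 52.6% of member peaks (49.2% to 56.0%) overlapped an Igf2bp3-RIP peak, against 52.4% of peaks of other genes, with 48.6% for Mir, 46.1% for Gm and 60.7% for Rik. In Igf2bp3-RIP 48.8% of member peaks (45.6% to 51.9%) overlapped a Lin28a-RIP peak, against 61.0% (60.3% to 61.7%) of the others. The overlapping peak carried the same gene name in 99.5% and 98.7% of these cases. Member peaks in Lin28a-RIP ranked close to the middle by reads. Their median percentile among all 21616 peaks was 45.2 and 45.8 in the 2 libraries, with 54.5 and 55.5 for Mir, 44.8 and 46.8 for Gm and 35.1 in both for Rik. The libraries differed by a median of 0.09 on the log2 CPM scale over member peaks. Mir7005 had 22 Lin28a-RIP peaks in Lama5 and Mir7018 had 20 in Hspg2, both genes of basement membrane proteins, and in each case 1 peak touched the hairpin.

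Long non-coding RNAs with a name of their own fall outside the symbol rule. Of 34 such genes searched for, 12 had m6A-RIP rows, of which 3 were higher and 21 lower of 31 (over all rows 30.0% were higher and 31.8% lower), with a median of -0.63 against 0.00 over all rows. In Igf2bp3-RIP 6 had 21 peaks, none of which passed in edgeR, at an unadjusted p under 0.05 or in DESeq2. In Lin28a-RIP 4 had 14 peaks, and none was listed in the input. Rows of 1 gene are not independent, and nothing particular to such genes is read from these counts.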

How the data were processed

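Input, m6A-RIP, Igf2bp3-RIP and Lin28a-RIP libraries of control and Lin28a+ MuSCs were analysed, 14 in all. Per the study's methods and the submitters' processing notes, reads were aligned with HISAT2 2.0.4, m6A peaks were called with MACS2 1.4.3, annotations were made with Homer, and transcriptomes were compared with DESeq2 1.42.0. The builds listed are GRCh38, a human assembly, and mm10, and the positions in the tables match mouse genes of mm10 (GRCm38). The counting program and the pooling of replicates for peak calling are not given in the sources used here. The authors deposited whole-number counts per RIP row and estimated counts per input gene, both unscaled. The program behind the deposited estimated counts is likewise not given, and they were rounded before testing. Depth per library stands in the report. Entrez identifiers of 99.96% to 99.98% of rows matched RefSeq. The Lin28a+ columns of the m6A-RIP table share a single name and were assigned to their group only. Those of the input table are headed with m6A-RIP names. They were taken as Lin28a+ input because the descriptions of those samples name that table, and their numbers were not used. Every input change, and every comparison with it, rests on this assignment.

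Tests used edgeR 4.0.16 (quasi-likelihood, TMM, filterByExpr) in R 4.3.3 over each whole table, with Benjamini-Hochberg adjusted p under 0.05, and were tested on simulated data. Rows were compared with RefSeq GRCm38.p6 spans, with at least 1 base counted as overlap. CPM scales each count by the library total of its table. Named rows were the 3 higher and 3 lower rows of distinct genes per class with the smallest p and groups apart in m6A-RIP, all Igf2bp3-RIP peaks past the threshold, the highest rows or genes per class and table, and the 3 higher and 3 lower genes relative to input. Members, lists and rules were chosen with earlier results of these data known. Alternatives were DESeq2, RLE factors, total counts, other count filters, each library left out, a replicate block, stricter overlaps and counts per kilobase of peak. Peak sequences were not analysed here. Some rows that the naming rule selects are not reported here.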

Additional observations from a re-analysis of the deposited data

How the results depend on the processing

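Of 282 refits of the named rows and genes, 274 kept their direction and side of the threshold, 8 lost the call and none reversed. The 8 were Snhg3, 1 Mir6346 peak (4.52 with at least 10 counts in every library), 2310033P09Rik, 3830403N18Rik and 9130401M01Rik. Calls in m6A-RIP over all members stayed within 1.5 times. In Igf2bp3-RIP the members' 4 higher and 0 lower peaks became 20 and 9 with DESeq2 and 0 higher with at least 10 counts in every library, which drops 3 of the 4 Mir6346 peaks. Without control 1, control 2, Lin28a+ 1 or Lin28a+ 2 they were 11, 10, 19 and 14 higher and 2, 3, 5 and 3 lower. With a replicate block the members' calls were 66 higher and 56 lower, against 766 and 1222 over all peaks. The common coefficient of variation was then 14.5%, against 27.9% in the reported fit. Over all 19465 peaks the calls were 24 in the reported fit, 263 with DESeq2, 108 to 193 with a library left out and 1988 with the block. Replicate numbers are shared by 2 pairs only, whose differences correlated at r = 0.686 over 19465 peaks, and no label ties a number to a shared day, animal or batch, so the block result stands here only. In the input, DESeq2 called 7 members higher and 10 lower, and 1479 and 1560 of all 11317 genes. Relative to input, 5 were higher with total counts alone, and leaving out each library gave 2 to 5 higher and 2 to 5 lower, with 2 and 2 without control input 2 or a Lin28a+ input library, 3 lower without control input 1 and 5 higher without a Lin28a+ m6A-RIP library. With at least 50% of the peak inside the gene, 17.1% (Igf2bp3-RIP) and 13.3% (Lin28a-RIP) of member peaks lay in their own gene. When each peak had to cover at least 50% of the other, 33.6% and 38.7% overlapped, and 53.5% of Igf2bp3-RIP peaks with at least 100 counts did. Per kilobase, the median percentile in Lin28a-RIP was 42.5. The cause of these shifts was not tested. Low counts in control limit the folds of Mir6346, Mir6950 and rows at 0, as low input counts do for Gli2, 1700030C10Rik and 3830403N18Rik.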
